A study of Mus musculus with 27 samples.

Results

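The Krüppel-like factors described here are 8 genes, Klf2, Klf3, Klf4, Klf6, Klf7, Klf9, Klf10 and Klf13, out of 17 numbered Klf genes and 48440 gene identifiers in the bulk RNA table. They were selected on measured values of these same data, in which they had been seen to be low in knockout macrophages, so their genotype difference in bulk RNA is described below without a p-value. The data come from MC38 tumours (MC38 is a mouse colon adenocarcinoma line) grown in Ogt-flox mice (WT) or in Ogt-flox Lyz2-cre mice (KO). Ogt encodes O-GlcNAc transferase, which attaches a single sugar to serine and threonine residues of proteins. Lyz2-cre is expressed in macrophages, monocytes and neutrophils, and both genotypes carry the floxed allele, so the cre, its insertion at Lyz2 and the deletion of Ogt cannot be told apart. The age of the mice, the exons that were floxed and the animals behind each library are not given in the labels. Tumour macrophage RNA had 3 WT and 3 KO libraries, single cell RNA of CD45-positive cells had 2 labelled samples but 1 count matrix per genotype, and EGR2 CUT&Tag and ATAC-seq had 3 samples per genotype with 1 peak list per genotype and 1 merged list. All 8 genes passed the filter on low counts in bulk RNA and were detected in both matrices.

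Krüppel-like factors are transcription factors whose C-terminal zinc fingers bind GC-rich and CACCC elements, and whose N-terminal parts recruit either activators such as p300 or repressors such as CtBP and Sin3a. Klf2 keeps T cells quiescent and drives the receptors with which they leave tissue, and it restrains inflammatory gene expression in myeloid and endothelial cells. Klf4 acts in monocyte differentiation and in alternative activation of macrophages, while Klf6 favours inflammatory gene expression. Klf3 is a repressor, Klf7 is the closest relative of Klf6, Klf9 is induced by glucocorticoids, Klf10 is an early target of TGF-beta, and Klf13 regulates Ccl5 in T cells.

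The promoters of Klf2, Klf3 and Klf4 are shown because they were the members, of the 7 with a RefSeq promoter entry, that held the EGR motif GCGNGGGCG, and EGR2 is the factor whose binding was mapped. Each stretch is read 5′ to 3′ from RefSeq promoters of the GRCm38.p6 assembly and ends before the annotated start of the transcript. Capitals mark EGR motif matches on either strand and, in Klf2, a MEF2 site (CTAAATTTAG). The Klf2 stretch is chr8:72318812-72319011 (+ strand, 200 bases), the Klf3 stretch is chr5:64803271-64803387 (+ strand, 117 bases) and the Klf4 stretch is chr4:55532526-55532725 (- strand, 200 bases).
Klf2: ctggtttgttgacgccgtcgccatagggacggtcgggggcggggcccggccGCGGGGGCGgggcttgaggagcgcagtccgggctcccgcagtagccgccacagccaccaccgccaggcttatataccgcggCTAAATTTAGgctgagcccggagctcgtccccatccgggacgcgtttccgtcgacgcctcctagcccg
Klf3: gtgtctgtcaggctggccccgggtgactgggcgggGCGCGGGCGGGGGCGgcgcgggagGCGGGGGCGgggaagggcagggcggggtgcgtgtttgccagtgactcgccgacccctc
Klf4: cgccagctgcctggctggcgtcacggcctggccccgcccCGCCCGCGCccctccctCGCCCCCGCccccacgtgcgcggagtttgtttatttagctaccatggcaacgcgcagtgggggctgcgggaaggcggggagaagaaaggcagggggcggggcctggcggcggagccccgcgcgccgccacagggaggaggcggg

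Klf2 held 1 EGR match, Klf3 held 3, of which the first pair overlap, and Klf4 held 2. The EGR motif was present in 5.55% of 32851 RefSeq promoters of 300 bases (250 before and 50 after the start). The 7 members' promoters had a GC content of 58.3% to 76.7%, against a median of 52.7% over all promoters. The GC box GGGCGG, which overlaps EGR matches in these promoters, was in 6 of the 7 and in 35.7% of all promoters, and CACCC on either strand was in 5 of the 7 and in 57.5%. The MEF2 motif, of which Klf2 held 1 match 118 bases before its start, was in 3.19% of all promoters. None of the 7 held a CArG box, the site of serum response factor, which 1.63% of all promoters held. No EGR2 peak of either genotype overlapped any of the 7 promoters. Klf10 had no promoter entry and is not among the 7. Over all tested genes, 1.48% had an EGR2 peak centre of either list within 1 kb of the start site.

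In tumour macrophages every member was lower in KO, by amounts from Klf7 and Klf2, which were 1.88 and 1.80 times higher in WT, down to Klf6, which was 1.13 times higher in WT. The median log2 fold change (KO over WT) of the 8 was -0.62, against -0.0013 over the 12939 genes tested. All 8 were called lower by edgeR at an adjusted p below 0.05, and lower calls made up 18.9% of all genes tested. In all 8 the KO libraries lay below the WT libraries without overlap, which 23.3% of all genes tested did. These counts follow from how the genes were chosen and are given as a description. The library totals ran from 7032540 to 32406170 counts, the libraries of 1 genotype differed from each other by more than counting noise, and nothing in the labels says that they came from separate mice, so the spread may be technical. Ogt itself measured 61.0, 58.7 and 49.2 CPM in the WT libraries and 31.96, 39.1 and 33.0 in the KO libraries, without overlap; the count covers the whole gene, deleted part or not. All 12 macrophage markers were tested, 4 of them higher and 6 lower in KO, among them Csf1r (961 ± 31.4 against 1297 ± 11.2 CPM), Adgre1 (183 ± 1.77 against 251 ± 11.3) and Lyz2, the site of the cre (3882 ± 53.8 against 84.0 ± 1.52).

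Per kilobase of transcript, Klf4 was the most abundant member in WT macrophages at 554 ± 8.81 CPM per kb (SD, n = 3), followed by Klf2 at 384 ± 6.09 and Klf6 at 260 ± 3.72. Klf10 (67.6 ± 3.08 CPM per kb), Klf13 (21.5 ± 0.994), Klf3 (10.8 ± 0.153), Klf7 (7.60 ± 0.192) and Klf9 (4.28 ± 0.741) followed in that order. Every neighbouring pair in this order was separated by more than the SD of its libraries. In KO the order at the top changed: Klf4 stood at 339 ± 5.49, Klf6 at 229.9 ± 3.90 and Klf2 at 214 ± 21.1 CPM per kb, and the last 2 differed by less than the SD of Klf2.

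Klf2 measured 714, 696 and 717 CPM in the WT libraries and 379, 439.8 and 367 CPM in the KO libraries (ENSMUSG00000055148.7, mm10 chr8:72319033-72321656, + strand). The KO values spread more widely than the WT values, with KO library 2 the highest, and the groups were far apart. The mean fell from 709 ± 11.3 to 395 ± 39.0 CPM (SD, n = 3), a log2 fold change of -0.85 (SE 0.0341). Klf4 measured 1677, 1719 and 1669 CPM in WT and 1026, 1053 and 1022 CPM in KO (chr4:55527143-55532466, - strand). Its groups were each tight, and its log2 fold change was -0.71 (SE 0.0212). Klf6, the inflammatory factor, measured 1097, 1109.6 and 1078 CPM in WT and 985, 952 and 972 CPM in KO (chr13:5861489-5870393, + strand). Its log2 fold change of -0.17 (SE 0.0229) was the smallest of the 8, and the groups still did not overlap.

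Among the members at lower level, Klf7 measured 60.7, 63.6 and 61.2 CPM in WT and 34.8, 30.05 and 33.2 CPM in KO, a log2 fold change of -0.91 (SE 0.090). That was the largest difference on the log2 scale of the 8, and the KO libraries lay far below the WT libraries. The glucocorticoid-induced Klf9 measured 15.1, 11.2 and 15.7 CPM in WT and 9.51, 7.81 and 6.78 CPM in KO, with a log2 fold change of -0.78 (SE 0.182). It was the scarcest member, with a wide spread in both groups, and WT library 2 came close to KO library 1 without overlap. The TGF-beta target Klf10 measured 209.6, 195 and 213 CPM in WT and 135, 140.2 and 153 CPM in KO, a log2 fold change of -0.53 (SE 0.0477). Klf3, the repressor, and Klf13 were lower as well: Klf3 went from 121 ± 1.73 to 98.2 ± 2.75 CPM (log2 fold change -0.30, SE 0.0572) and Klf13 from 162 ± 7.48 to 131 ± 6.67 CPM (-0.31, SE 0.0510; SD, n = 3 for both).

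**Figure D1:**
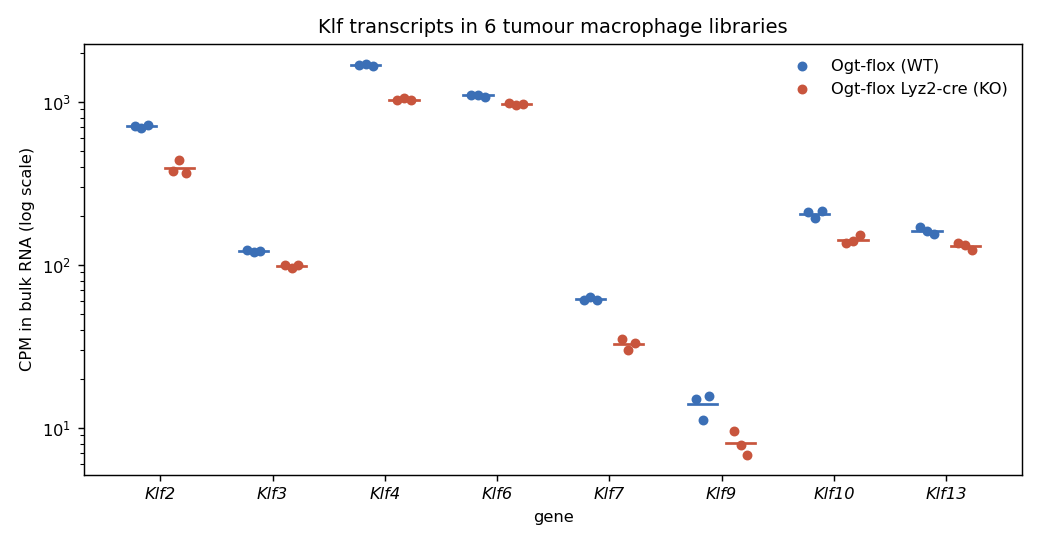
CPM of the 8 Klf genes (x axis) on a log scale (y axis) in the 3 WT and 3 KO bulk libraries, each point a library and each line a group mean. In every gene the KO points lie below the WT points, with the widest gaps at Klf2 (709 against 395 CPM on average) and Klf7 (61.8 against 32.7 CPM) and the narrowest at Klf6 (1095 against 969.7 CPM).

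Of the 10 other Klf genes listed, 3 passed the count filter. Klf11, a Sin3a-binding repressor close to Klf10, fell by 0.61 on the log2 scale, with 61.3 ± 2.44 CPM in WT and 40.2 ± 3.07 in KO (SE 0.0868, edgeR adjusted p = 2.276e-08, n = 3). Klf16 (40.9 against 38.5 CPM, adjusted p = 0.4871) and Klf8 (1.37 against 1.59 CPM, adjusted p = 0.7142) did not pass the edgeR test. Klf1, Klf5 and Klf12 had 8, 17 and 8 counts over the 6 libraries and Klf14, Klf15 and Klf17 had 0. Of the related Sp factors, which bind the same GC boxes, 4 of 9 were tested: Sp1 fell (log2 fold change -0.40, edgeR adjusted p = 1.61e-05), Sp4 rose (0.69, adjusted p = 0.00569), and Sp2 and Sp3 did not pass.

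Among 15 cofactors and ubiquitin ligases of Klf proteins, 3 fell and none rose: Smurf1, a ligase that marks Klf2 for degradation (log2 fold change -0.70, edgeR adjusted p = 5.825e-08), Sap30 (-0.44, adjusted p = 4.199e-06) and Ctbp1 (-0.16, adjusted p = 0.01519). Ep300, Sin3a and Wwp1 did not pass the test. Of 7 genes upstream of Klf2 and Klf4, only the Foxo factor Foxo3 was called, lower in KO at -0.51 (edgeR adjusted p = 7.192e-11), while Mef2a, Mef2c, Mef2d, Mapk7, Map2k5 and Foxo1 did not pass. The median log2 fold change of the cofactors was -0.0269 and that of the upstream genes -0.0179, near the -0.0013 of all genes.

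In the pathways that induce members, the glucocorticoid list had 3 of 6 genes lower, Tsc22d3 (-0.59, edgeR adjusted p = 2.129e-18), Sgk1 (-0.33, 1.47e-18) and Per1 (-0.24, 1.551e-10), and the receptor gene Nr3c1 higher (0.62, 5.269e-11). The TGF-beta list had 3 of 11 genes higher and 3 lower, with Smad3 higher (0.52, edgeR adjusted p = 3.019e-05) and Smad4 and Skil lower (-0.41 and -0.17, both 5.319e-06). Of 6 macrophage genes reported as Klf4, Klf2 or Klf6 targets, Arg1 fell (-0.50, edgeR adjusted p = 6.512e-15), while Chil3 (1.74, 6.955e-14), Pparg (0.65, 0.0001519) and Mrc1 (0.14, 0.004126) rose. Retnla and Hif1a did not pass. In the macrophage class of the single cell data, with 1 matrix per genotype and no test, Arg1 and Chil3 differed the other way: Arg1 stood at 317 CPM in WT and 599.7 in KO, and Chil3 at 38.7 in WT and 17.0 in KO. In the monocyte class, where Chil3 was more abundant, it stood at 713 CPM in WT and 589.5 in KO.

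Immediate early and heat shock genes can be induced when tissue is dissociated, and Klf2, Klf4 and Klf6 are often counted among them. They moved with the members: 14 of 16 were lower in KO and 1, Fos, was higher, with a median log2 fold change of -0.31. Junb fell by 0.49 on the log2 scale (edgeR adjusted p = 1.847e-36), Hspa1a by 0.32 (1.491e-31) and Hspa1b by 0.28 (2.047e-30), and Fos rose by 0.29 (1.317e-19). Hspa1a and Hspa1b are near-identical copies, so reads may be split between them. Their part in the Klf result was not tested.

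The bulk libraries also held RNA of lymphocytes. Summed over 15 T and NK cell genes, the WT libraries held 368 to 380.2 CPM and the KO libraries 498 to 515 CPM, and 9 of the 14 tested rose while 2, Gzma and Klrb1c, fell. Ncr1, which defines NK cells, was too low to be tested. Among genes for lymphocyte egress and homing, S1pr1 (1.42 against 4.47 CPM, edgeR adjusted p = 0.0001273), S1pr4 and Itgb7 rose, and Ccr7 and Il7r fell. The summed T and NK cell level was thus higher in KO while the members were lower, and its part in the Klf result was not tested. In bulk samples, fewer cells of a type and less RNA per cell cannot be told apart.

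The single cell matrices give each member's level by cell class and have no replicate, so no test was made. Filtering left 9712 cells in the WT matrix, at a median of 5579 UMIs each, and 9767 in the KO matrix, at 5807, and 23 cell barcodes occurred in both matrices. Clusters were built without any Klf or Sp gene and named from marker genes, giving 11 named classes, of which 10 had at least 100 cells in each matrix, with B cells (33 and 40 cells) the exception. The class called cDC2 also had plasmacytoid markers (Siglech, Ccr9) among its leading genes, and the names are rebuilt here rather than taken from the authors. 3 clusters stayed unnamed, the largest, with 2331 cells, led by Rhov, Gab1 and Nos2. This largest one had its best marker score for monocytes (0.54), then macrophages (0.352), and its cells entered no named class. Levels are the UMIs of a gene summed over the cells of a class and scaled to a common total (CPM), and their 95% exact intervals cover counting error only.

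Pooled over both matrices, the members had distinct cell distributions. Klf2 was highest in neutrophils at 1537 CPM and lowest in CD8 T cells at 371 CPM, and it stood at 865 CPM or more in B cells, macrophages, monocytes, gamma-delta T or innate lymphoid cells and resting T cells. Klf4 was highest in monocytes at 930.3 CPM and macrophages at 753. It stood at 494 CPM in gamma-delta T or innate lymphoid cells, 456 in cDC2 and 299.5 in the few B cells. It stood at 57.9 CPM in CD8 T cells, 71.2 in regulatory T cells and 82.0 in neutrophils, against 367 (WT) and 333 (KO) CPM in RNA outside cells, measured in barcodes of 1 to 50 UMIs. Klf6 ranged from 383 CPM in NK cells to 1080.4 in neutrophils. Klf7 was highest in neutrophils (226 CPM) and macrophages (146), and Klf3 in neutrophils (211) and monocytes (187). Klf13 was highest in gamma-delta T or innate lymphoid cells (347 CPM) and resting T cells (254) and lowest in neutrophils (90.2). Klf10 was highest in the gamma-delta T or innate lymphoid class (197 CPM), and Klf9, scarce everywhere, reached 64.8 CPM there and 61.9 in monocytes. Klf12, named here after its values were seen, was at most 1.32 CPM in macrophages and monocytes and reached 99.2 CPM in regulatory T cells and 81.6 in NK cells.

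Klf2 was lower in the KO matrix in all 11 named classes, lymphoid as well as myeloid. NK cells held 762 CPM in WT and 240.2 in KO, a KO over WT ratio of 0.315 (0.301 to 0.330). Resting T cells held 1168 and 475 CPM, a ratio of 0.406 (0.383 to 0.431), CD8 T cells 546 and 232 CPM, a ratio of 0.425 (0.407 to 0.443), and gamma-delta T or innate lymphoid cells 1334 and 556 CPM, a ratio of 0.416 (0.376 to 0.461). Macrophages held 1349 and 705 CPM, a ratio of 0.522 (0.510 to 0.535), monocytes 1211 and 823, a ratio of 0.680 (0.655 to 0.706), and neutrophils 1797 and 1350.1, a ratio of 0.751 (0.713 to 0.791). In regulatory T cells Klf2 went from 759.9 to 472 CPM, a ratio of 0.621 (0.593 to 0.650), in CD4 T cells the ratio was 0.534 (0.4998 to 0.571), in cDC2 0.622 (0.586 to 0.659) and in the few B cells 0.615 (0.511 to 0.738). The ratios of lymphoid classes ran from 0.315 to 0.621. Those of macrophages, monocytes and neutrophils, in which Lyz2-cre is active, ran from 0.522 to 0.751. NK, resting T, CD8 T and gamma-delta T or innate lymphoid cells lay below that range, and CD4 T, regulatory T and B cells lay within it.

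The lower Klf2 held cluster by cluster. In all 23 clusters, unnamed ones included, the KO value was below the WT value, and in 20 the interval of the ratio lay below 1, with ratios from 0.317 to 0.988. How many other genes were lower in as many clusters or classes was not computed. The genotypes filled different clusters in some classes. Most numerous among WT macrophages were those of cluster 5 (682 cells), led by MHC class II genes, and among KO macrophages those of cluster 2 (695 cells), led by Arg1. Klf2 went from 1473 to 898 CPM in cluster 5 and from 894 to 748 in cluster 2. Among WT CD8 T cells cluster 10 was the largest (460 cells), led by Ccl5 and Gzmk, and among KO CD8 T cells cluster 19 (760 cells), led by Gzmf. Klf2 went from 1327 to 459 CPM in cluster 10 and from 270.2 to 93.9 in cluster 19. RNA outside cells had the same difference, with 1019 CPM in WT and 539 in KO, a ratio of 0.529 (0.488 to 0.572). In NK, CD8 T, CD4 T and regulatory T cells Klf2 lay below this level in each matrix. The part of such RNA in their counts was not tested.

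**Figure D2:**
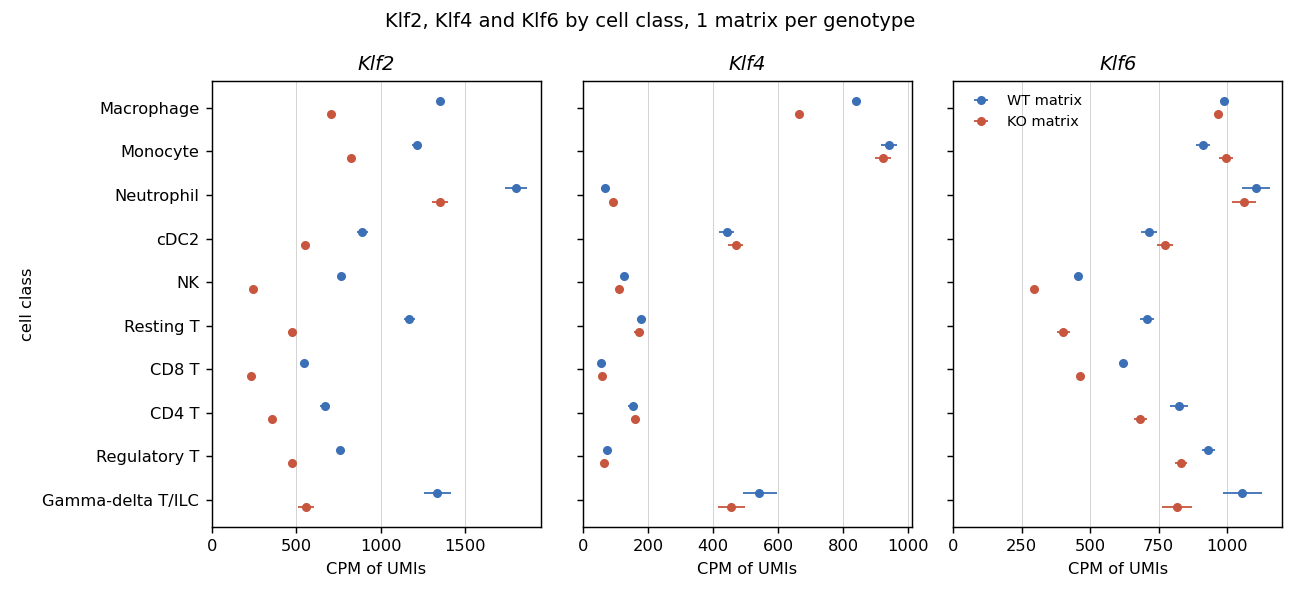
CPM of UMIs (x axis) of Klf2, Klf4 and Klf6 in the 10 classes with at least 100 cells per matrix (y axis), each point 1 matrix and each bar the 95% exact Poisson interval. Klf2 is lower in KO in every class, and Klf4 separates mainly in macrophages (840.0 against 665 CPM). Klf6 separates most in resting T and gamma-delta T or innate lymphoid cells, then in NK and CD8 T cells.

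Of the 16 immediate early and heat shock genes, Fos, Hspa1a, Hspa1b and Nr4a1 were also lower in KO in all 10 large classes, and Atf3, Btg2, Jun and Zfp36 in 9 of them. Dusp1 was lower in 8 and Ier2 in 7, Egr1, Fosb and Junb in 6, and Jund and Ier3 in 4, with ratios up to 1.38 for Jund and 1.77 for Ier3. Egr3 was lower in 4 of the 8 classes that gave it a ratio. In NK cells Fos went from 285 to 130 CPM and Hspa1a from 2366 to 1022 CPM, and in macrophages 15 of the 16 were lower, with a median ratio of 0.698, against 34.3% of genes with at least 100 UMIs and 20 CPM there. In CD4 T cells 8 of 16 were lower, against 54.1% of genes, with a median ratio of 0.977. Among the 8 were Hspa1a (3630 CPM in WT, 2714 in KO) and Hspa1b (3191 and 2095). Klf2 had a ratio of 0.534 there, and its relation to these genes was not tested. Fos was higher in KO in the bulk libraries and lower in KO in the macrophage class. With 1 matrix per genotype, genotype and preparation cannot be told apart.

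S1pr1, an egress receptor through which Klf2 is known to act in T cells, had ratios nearer to 1 than Klf2. In resting T cells S1pr1 stood at 163 CPM in WT and 165 in KO, a ratio of 1.01 (0.898 to 1.14), beside the Klf2 ratio of 0.406. S1pr1 headed the leading genes of the cluster named resting T and, unlike Klf2, was not kept out of the clustering. Its ratio there may thus depend on how the cells were grouped, which was not tested. Il7r, the interleukin 7 receptor of resting T cells, had a ratio of 0.714 (0.631 to 0.808) there. In CD8 T cells the S1pr1 ratio was 0.95 (0.801 to 1.13) at 22.1 and 21.0 CPM. In NK cells S1pr1, at 8.87 and 11.2 CPM, had a ratio of 1.26 (0.961 to 1.66).

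Klf4 was lower in KO macrophages, at 840.0 against 665 CPM, a ratio of 0.792 (0.772 to 0.813). In monocytes it stood at 939 and 921 CPM, a ratio of 0.981 (0.945 to 1.02). Within the macrophage class it was lowest against WT in cluster 7, where Klf4 went from 677 to 436 CPM, a ratio of 0.644 (0.614 to 0.676). In clusters 2 and 5 it was 890.2 against 879.9 and 993 against 969 CPM, and both intervals included 1. Over the alternatives the log2 ratio of Klf4 in the macrophage class ran from -0.64, with fewer and larger clusters, to -0.17, with each cell weighted alike. Cluster 7, with 362 cells of each genotype, was led by Ccl12, Cadm1, Vcam1 and C1qc and had a median depth of 15358 UMIs, against 5924.5 in cluster 2 and 7728 in cluster 5.

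In cluster 7 all members but Klf13 were lower in KO beyond counting error. The share of all genes lower beyond counting error in this cluster was not computed, so how unusual this is cannot be told. In the macrophage class as a whole, 34.3% of genes with at least 100 UMIs and 20 CPM were lower by any amount, which is a looser count. The WT cells of cluster 7 held 5275964 UMIs and the KO cells, equal in number, 6994342. The ratios were 0.407 for Klf2, 0.671 for Klf3, 0.644 for Klf4, 0.762 for Klf6, 0.504 for Klf7, 0.540 for Klf9, 0.648 for Klf10 and 0.969 for Klf13. The bulk folds (KO over WT), in the same order, were 0.556, 0.810, 0.612, 0.886, 0.533, 0.584, 0.692 and 0.805. In cluster 2 Klf6 had a ratio of 1.12 (1.08 to 1.17) and Klf7 of 1.04 (0.944 to 1.14), and in cluster 5 they had 1.04 (0.995 to 1.09) and 0.9997 (0.874 to 1.14).

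Klf6 and Klf7 were each lower in KO beyond counting error in 7 of the 10 large classes. The share of all genes lower beyond counting error was not computed for these classes. Klf6 went from 454 to 295 CPM in NK cells, a ratio of 0.650 (0.621 to 0.680), from 708 to 402 in resting T cells (0.568, 0.531 to 0.608) and from 619 to 464 in CD8 T cells (0.749, 0.724 to 0.774). In gamma-delta T or innate lymphoid cells it went from 1054.5 to 817 CPM (0.775, 0.703 to 0.853). In cluster 21, a regulatory T cluster of 58 WT and 39 KO cells, Klf6 was higher in KO, with a ratio of 1.42 (1.26 to 1.60). In macrophages it stood at 991 and 969 CPM (0.977, 0.955 to 0.9997), in monocytes at 913 and 996 (1.09, 1.05 to 1.13) and in cDC2 at 714 and 773 (1.08, 1.02 to 1.15). The macrophage log2 ratio of Klf6 ran from -0.34 to 0.17 over the alternatives. Klf7 went from 75.0 to 39.7 CPM in CD8 T cells (ratio 0.529, 0.475 to 0.588), from 92.8 to 49.9 in regulatory T cells (0.538, 0.468 to 0.618) and from 98.7 to 47.8 in gamma-delta T or innate lymphoid cells (0.484, 0.332 to 0.699). It also went from 77.1 to 56.5 CPM in monocytes (0.732, 0.633 to 0.846) and from 157 to 134 in macrophages (0.854, 0.805 to 0.907), where its log2 ratio ran from -1.06 to 0.0083 over the alternatives. In CD4 T cells the Klf7 ratio was 0.870 with an interval including 1 (0.717 to 1.06), and B cells held 67.5 CPM of Klf7 in WT and 76.9 in KO, also with an interval including 1.

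Klf10 and Klf13 went the other way in CD8 T cells. Klf10 went from 66.7 to 95.4 CPM, a ratio of 1.43 (1.31 to 1.56), and was above 1 in clusters 10, 14 and 19 (1.31, 1.43 and 1.52). Klf13 went from 137 to 192 CPM, a ratio of 1.40 (1.31 to 1.49), with 1.08 in cluster 10 (interval including 1), 1.54 in cluster 14 and 1.42 in cluster 19. In neutrophils Klf10 went from 135 to 178 CPM, a ratio of 1.32 (1.12 to 1.57). Klf13 also had a ratio of 1.18 (1.11 to 1.26) in NK cells, 1.21 (1.1 to 1.33) in resting T cells and 1.30 (1.08 to 1.56) in RNA outside cells. In macrophages Klf10 had a ratio of 0.881 (0.816 to 0.952), whose log2 value ran from -0.54 to -0.0015 over the alternatives, and Klf13 of 1.01 (0.951 to 1.08). Klf3 and Klf9 had ratios below 1 beyond counting error in 2 and 4 of the 10 large classes, and the share of all genes was not computed.

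Counted with a fold of 1.5, the members past it in the lower direction were Klf2 alone in macrophages, where 1.22% of genes with at least 100 UMIs and 20 CPM were past it, and none in monocytes, against 1.15%. Klf2 and Klf6 were past it in NK cells (1.42% of genes) and resting T cells (2.20%), and Klf2 and Klf7 in CD8 T cells (1.90%).

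**Figure D3:**
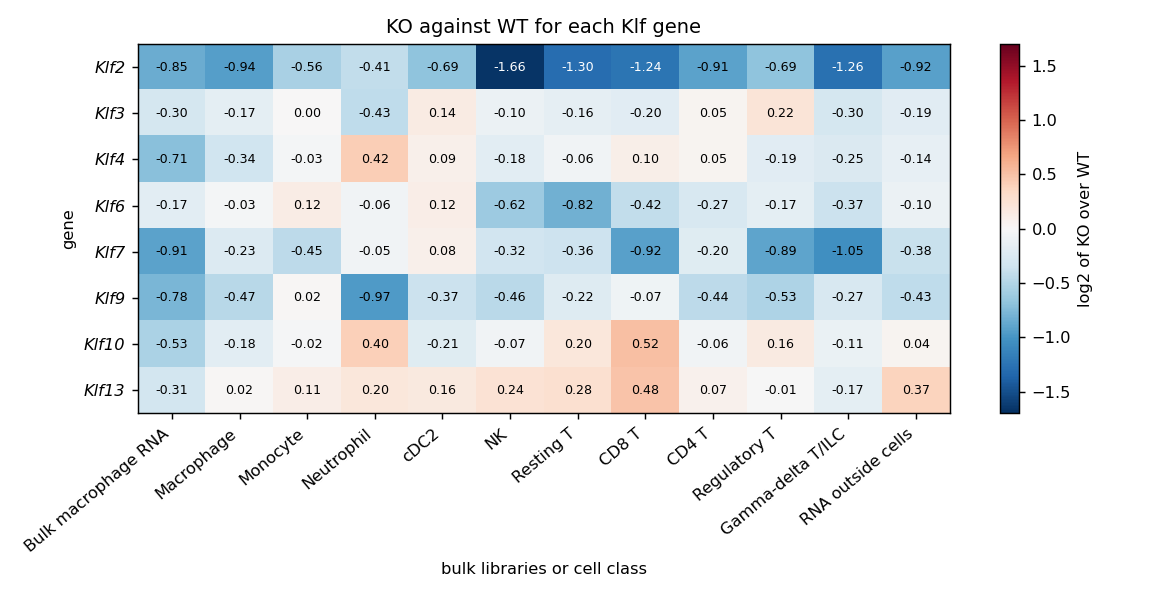
Log2 of KO over WT (colour and number) for each Klf gene (y axis) in the bulk macrophage libraries, in 10 cell classes and in RNA outside cells (x axis); bulk values are fitted over 3 libraries per genotype and the others rest on 1 matrix each. Klf2 is below 0 in every column, from -0.41 in neutrophils to -1.66 in NK cells, while Klf10 and Klf13 are below 0 in bulk RNA and above 0 in CD8 T cells (0.52 and 0.48).

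Over the 11 named classes, the pooled levels of Klf2 and Klf3 were the most alike pair of members (Pearson r = 0.86) and those of Klf7 and Klf13 the most opposed (r = -0.70). Among 8410 other genes Klf2 was most like Atp6v1h (r = 0.95) and Lonrf1, and those most like Klf4 were Tnfrsf12a (r = 0.97), Sestd1 and Cyp4f16. Klf6 was most like Cited2 (r = 0.96), Vamp4 and Slc15a3, and Klf7 like Gm6209 (r = 0.96), Cxcl3 and Napa. Klf3 was most like Treml2 (r = 0.91), Tom1 and Cnnm4, and Klf9 like Klhl7 (r = 0.88), Daam1 and Prkx. Klf10 was most like Ddx3x (r = 0.92), Rnf144a and Kdm6b, and Klf13 like Ubr4 (r = 0.94), Pon2 and Madd. The 11 points share 2 libraries and are not replicates, so these are descriptions.

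EGR2 binding was mapped in macrophages by CUT&Tag, and 2 of the 8 members had an EGR2 peak of either genotype within 10 kb of the gene, against 24.5% of tested genes. The WT list (5408 peaks) had a peak at 1 of the 8 and at 17.0% of tested genes, and the KO list (4995 peaks) at 2 of the 8 and at 14.5%. At Klf10 the KO list had a peak centred 4 bp from the start site (chr15:38300453-38300953), with a score above that of 77.4% of its list, and the WT list had a peak in the gene body 3.93 kb from the start (chr15:38296526-38297026). A peak centre within 1 kb of a start site occurred at 0.634% of tested genes in the KO list and 0.897% in the WT list. At Klf6 the KO list had a peak 10.6 kb from the start site, beyond the end of the gene, with a low score (percentile 16.5). None of the 3 peaks overlapped a peak of the other genotype or an ATAC peak. The KO peak at Klf10 ended just before an ATAC peak named after WT (chr15:38300962-38301462). The share of all EGR2 peaks without such an overlap was not computed. For the members with EGR motifs in their promoters, the nearest peak of either list lay 46.2 kb from Klf2, 157.4 kb from Klf3 and 182.3 kb from Klf4. The scores are the authors' own, and with 1 list per genotype the presence of a peak in 1 list has no replicate.

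Open chromatin was found near 6 of the 8 members, against 55.0% of tested genes with an ATAC peak within 10 kb. Klf4, Klf6 and Klf13 had 4 peaks each, Klf10 had 3, and Klf3 and Klf7 had 1 each, while Klf2 and Klf9 had none in the list. The strongest were at Klf10, where peaks named after WT lay 1.18 kb into the gene and 505 bp before its start, with scores above 98.1% and 97.9% of the list. At Klf4 a peak named after KO lay 411 bp before the start (percentile 88.8) and overlapped the promoter window by 99 bp. A peak within 1 kb of the start site, as at Klf4 and Klf10, occurred at 7.38% of tested genes. The tested genes all passed the count filter in macrophage RNA, so lack of a peak in this list, as at Klf2, does not show closed chromatin. At Klf6 the 4 peaks lay 6.86 to 9.06 kb before the start. The list names each peak after 1 genotype and merges the samples, so a name does not show that the site was closed in the other genotype.

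**Figure D4:**
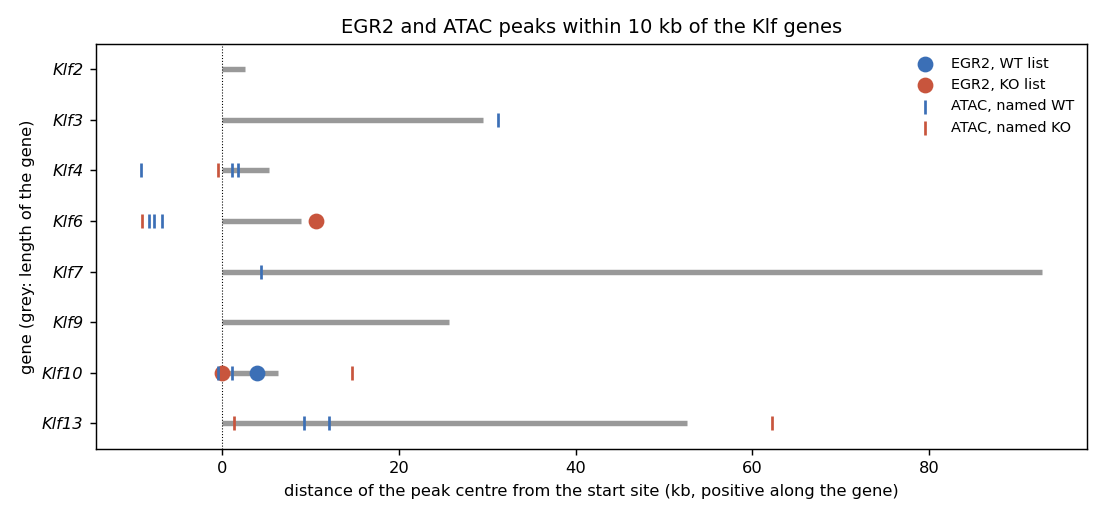
Distance in kb of each peak centre from the start site (x axis, positive along the gene) for the 8 Klf genes (y axis), with grey bars for gene length, circles for EGR2 peaks and ticks for ATAC peaks, coloured by the genotype that the list or the peak name gives. EGR2 peaks are seen at Klf10, 4 bp (KO list) and 3.93 kb (WT list) from the start, and beyond the end of Klf6, and none is seen at Klf2 or Klf4.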

How the data were processed

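Of the 27 samples, 22 entered: macrophage RNA, single cell RNA, EGR2 CUT&Tag and ATAC-seq; EGR2 ChIP-seq, H3K27ac and H3K4me1 were not analysed here. Bulk RNA values are counts per gene deposited by the authors, made with featureCounts 2.0.6 on GENCODE gene models per the file headers, with both reads of a pair counted and without strand. Per the file headers, Cell Ranger 8.0.1 made the deposited UMI counts of all barcodes. The authors' peak lists give a score per peak of 501 bp on a scale that is not stated; the submitters' processing notes name mm10. No source used here names the aligner or the peak caller.

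The quasi-likelihood test of edgeR 4.0.16 (R 4.3.3; filterByExpr, TMM) was run 2-sided on the bulk counts of 12939 genes with Benjamini-Hochberg adjustment at 0.05, after checks on simulated data; CPM are TMM-normalised. Same-numbered WT and KO libraries did not deviate together (correlations 0.0165, 0.0113 and 0.020), so no pairing was used.

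A barcode counted as a cell from 500 genes and 1000 UMIs upwards, with mitochondrial UMIs of 10% or less. Scrublet doublets (4.91% in WT, 3.16% in KO) were removed, and scanpy 1.11.5 made the clusters (Leiden at resolution 1 on 15 neighbours over 30 components of 2000 variable genes, without Klf and Sp genes). Names went to clusters with 3 or more detected markers of the class whose score led the next by 0.05 or more. Clusters that met this still stayed unnamed if a different class outnumbered theirs in markers among the 10 top genes. The same applied to clusters with few UMIs and none of their own markers there. The largest unnamed cluster, with 2331 cells, was left out for the first of these reasons. Ratio intervals are exact at 95%. Peaks were assigned by their centre within 10 kb of a gene.

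The members and lists were chosen with earlier results of these data known. Named genes are the members, up to 3 called genes per list by adjusted p, tested Klf genes and the 3 most alike genes per member; others were named after their values were seen, and some genes that the rule names are not reported here. The alternatives are given under the dependence on processing.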

Additional observations from a re-analysis of the deposited data

Results flagged for a closer look

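For 3 members the KO over WT ratio lay above 1 in at least 1 large cell class and below 1 in another, beyond counting error in each. Klf4 had a ratio of 1.33 in neutrophils (68.6 against 91.6 CPM, below the level in RNA outside cells) and 0.792 in macrophages. The neutrophil log2 ratio of 0.39 turned to -0.33 with a looser cell filter, -0.56 with a stricter one and -0.59 with doublets kept. Klf6 had a ratio of 1.09 in monocytes, 1.08 in cDC2 and 0.568 in resting T cells, and the cDC2 log2 ratio of 0.11 ran from -0.11 to 0.13 over the alternatives. Klf10 had a ratio of 1.43 in CD8 T cells, 1.32 in neutrophils (135 against 178 CPM) and 0.881 in macrophages. The difference between the classes was not tested, since each genotype has 1 matrix.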

How the results depend on the processing

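All 8 members were called lower in KO under each of the 11 bulk alternatives. The members were chosen as low in KO in these data and the alternatives refit the same libraries, so this is a description. Calls over all genes ranged from 3991 to 4587 when 1 library was left out, against 4874, and the members called stayed at 8 to 8. With a replicate block 8 members and 4691 genes were called; the library numbers are numbers only, although every library correlated best with its own number. Keeping all genes with a count moved the median log2 fold change of all genes to 0.13, and Klf2 then stood at -0.83. In the single cell data Klf2 was lower in KO in every large class under each of the 9 alternatives, with log2 ratios in macrophages from -1.26 to -0.75. Of 80 pairs of member and class, 25 changed the sign of the log2 ratio in at least 1 alternative. Klf6 in macrophages and Klf4 in neutrophils were among them. In the main setting each of the 25 lay within 0.392 of 0 on the log2 scale. In the alternatives some went further, such as Klf7 in macrophages at -1.06. The cause was not tested. With a window of 50 kb, 4 members and 46.3% of tested genes had an EGR2 peak of either list, and with peaks at or above each list's median score 1 member and 15.2% did, against 2 and 24.5%; a wider window holds more peaks and a shorter list fewer. No EGR2 peak at the members overlapped one of the other list by 1 bp, so requiring 250 bp could only leave 0 peaks shared again. With 1 matrix and 1 peak list per genotype, counting error is the sole error available there.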
